A study of Homo sapiens with 6 samples.

Results

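The genes of 10 intermediate filament proteins were examined in SH-SY5Y, an established line of human neuroblastoma cells that resemble immature neurons. They are the neurofilament genes NEFL, NEFM and NEFH, the internexin gene INA, the peripherin gene PRPH, the nestin gene NES, the vimentin gene VIM, the synemin gene SYNM and the keratin genes KRT8 and KRT18. They were chosen by symbol, and all 10 were found among the 26372 gene symbols of the deposited table. The control group (shNC) carried a lentiviral control hairpin and the other group (shTDP43) a hairpin against TDP-43, the RNA- and DNA-binding protein encoded by TARDBP. Both hairpins were placed behind a U6 promoter, and the cells were grown in medium with serum. For the knockdown line the labels describe selection with puromycin at 2 µg/mL for 2 weeks and upkeep at 1 µg/mL. The same values are recorded for the shNC libraries. Each group had 3 libraries of poly(A) RNA. The labels name 1 hairpin against TDP-43, and nothing in them tells whether replicate libraries started from different infections or dishes. The p-values therefore cover no more than the variation among these libraries, and that variation may be technical.

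Intermediate filaments are rope-like polymers that give cells mechanical strength, and each cell type assembles its own mixture of subunits. In mature neurons NEFL forms the core of the filament, NEFM and NEFH add long phosphorylated side arms, and INA or PRPH co-assembles with them. Nestin and vimentin belong to progenitor and mesenchymal cells, synemin links filaments to other structures, and KRT8 pairs with KRT18 in simple epithelia. TDP-43 binds the 3′ untranslated region of NEFL mRNA, and neurofilament accumulation and altered subunit ratios are known from motor neurons in amyotrophic lateral sclerosis. The comparison asks how the mRNA of these subunits differed in cells that stably carried the hairpin against TDP-43.

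TDP-43 favours RNA with repeats of G and U, so the mature transcript of each gene was searched for GTGTGT or TGTGTG, with T in place of U, on its own strand. Overlapping matches were counted separately. The transcript with the longest coding part in the GENCODE annotation of GRCh38 was used. NEFL held 2 matches, both in the 3′ untranslated region, INA 1 in the same part, SYNM 2 in its coding part and PRPH 15 in a long 5′ untranslated region. All 15 matches of PRPH lie upstream of the start of the gene in RefSeq, so they belong to its mRNA only where transcription begins at the upstream GENCODE start, which these data do not show. NEFM, NEFH, NES, VIM, KRT8 and KRT18 held 0. Among all tested genes with a matching transcript (11600 of 13263), 73.3% held at least 1 match, with a median of 2 matches. Introns, where TDP-43 also binds, were not searched. The stretch around the longest run in 3 of the genes is shown so that the run and its surroundings can be seen, 5′ to 3′ in the transcript's direction, with the run in capitals. The SYNM stretch is coding sequence at chr15:99105263-99105292 (plus strand), the INA stretch lies at chr10:103290057-103290086 (plus strand) and the PRPH stretch at chr12:49293964-49293993 (plus strand).
INA: cccagtctttcaTGTGTGccaaggctgatg
PRPH: gatgtgtgatTGTGTGTGTatgtgtgtgta
SYNM: ctctatgactacGTGTGTcgggtgcgggag
The INA and SYNM runs are a single hexamer each, while the PRPH run of 9 bases is followed by further GT repeats. A match is a description of the letters and not a measured binding site.

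Levels are in FPKM, fragments relative to gene length and library size, so that genes can be compared per length. Between 17945 and 18334 genes were above 0 in a library, and each shNC library had more of them than each shTDP43 library. Steps among the lowest values gave estimated depths of 1.16 to 1.27 for shNC libraries and 1 to 1.12 for shTDP43 libraries, relative to shTDP43 replicate 1. Depth and group cannot be told apart where a gene is near 0. Libraries correlated across genes at r = 0.993 to 0.995 within a group and 0.980 to 0.982 between groups. The targeted gene TARDBP had 56.1, 56.2 and 56.6 FPKM in shNC and 36.0, 33.1 and 34.8 FPKM in shTDP43, 61.5% of control (log2 difference -0.69; limma adjusted p = 2.84e-06). An exact two-sided permutation test of its 6 values gave p = 0.1, the smallest that 3 against 3 libraries can reach. The noradrenergic regulators of this cell line were abundant in both groups, with HAND2 at 446 and 424 FPKM and GATA3 at 128 and 149 FPKM in shNC and shTDP43, whereas tyrosine hydroxylase (TH) stood at 0.0254 and 0.120 FPKM.

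In control cells VIM was the most abundant of these mRNAs at 129 ± 0.381 FPKM (SD, n = 3). NES followed at 67.9 ± 1.66 FPKM, NEFL at 48.2 ± 0.776 FPKM and INA at 42.8 ± 1.80 FPKM. NEFM at 34.0 ± 0.686 FPKM and NEFH at 20.6 ± 0.155 FPKM completed the abundant group. SYNM at 3.96 ± 0.175 FPKM, KRT18 at 2.17 ± 0.544 FPKM, PRPH at 1.06 ± 0.224 FPKM and KRT8 at 0.108 ± 0.0271 FPKM were far lower. No neighbours in this order had overlapping values in the control libraries. In shTDP43 the order of the means was the same down to SYNM, but INA and NEFM overlapped in their values. PRPH and KRT18 also overlapped there, and KRT8 was listed at 0.

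**Figure D1:**
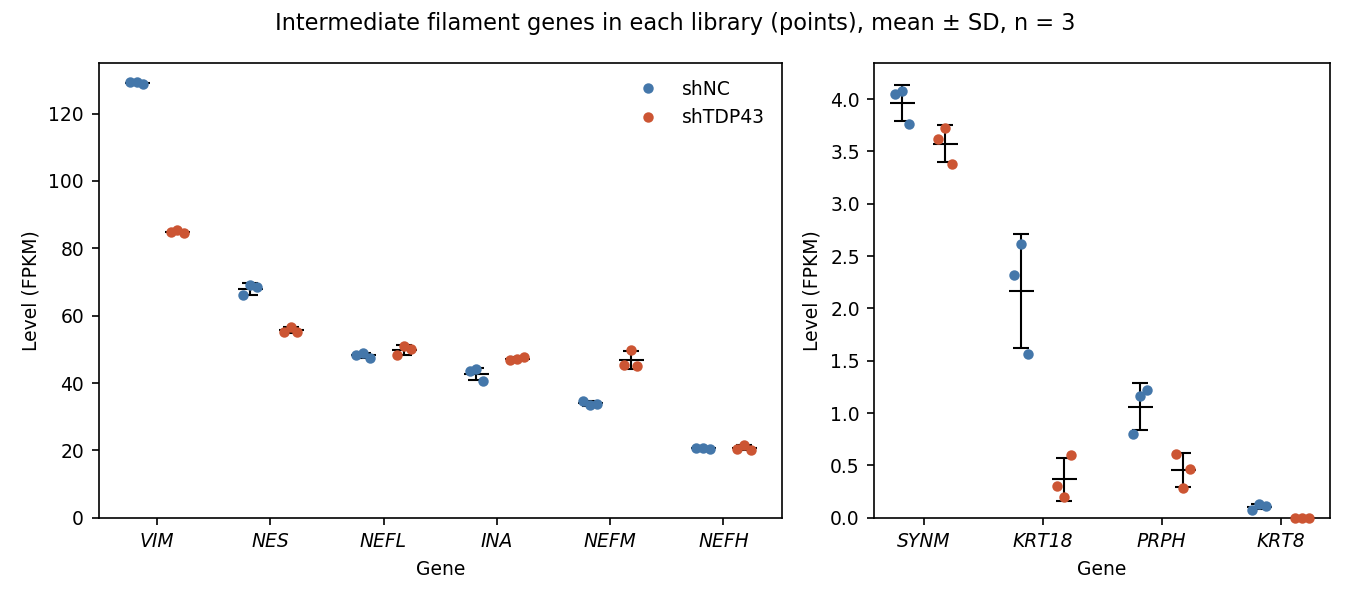
FPKM of the 10 intermediate filament genes in each library (points) with the mean and SD of the 3 shNC (blue) and 3 shTDP43 (red) libraries, abundant genes on the left and low genes on the right with a scale of their own. VIM stands at 129 and 84.9 FPKM and NEFM at 34.0 and 46.7 FPKM, with no overlap between groups, whereas the NEFL and NEFH points overlap.

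The differences fell into opposite directions by subunit. NEFM and INA were higher in shTDP43, VIM, NES and KRT18 were lower, and NEFL, NEFH and SYNM did not pass the test. Values were compared as log2(FPKM + 1) with limma over the 13263 genes whose mean reached 1 FPKM, and a gene passed at a Benjamini-Hochberg adjusted p under 0.05. Of the 10 genes 8 reached that level, and PRPH and KRT8 did not. Among the 8, 2 were higher, where 18.5% of all tested genes were called higher, and 3 were lower, where 19.6% were called lower, so 5 of 8 passed against 38.1% of all tested genes. The groups did not overlap in 6 of the 8, against 50.7% of all tested genes, 2 of them higher (25.3% of all) and 4 lower (25.4%). KRT18 reached the tested level only through its control libraries. The median log2 difference of the 8 was -0.06, beside 0.0012 for all tested genes. Percentages of control are ratios of mean FPKM, since log2(FPKM + 1) understates the change of low genes.

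**Figure D2:**
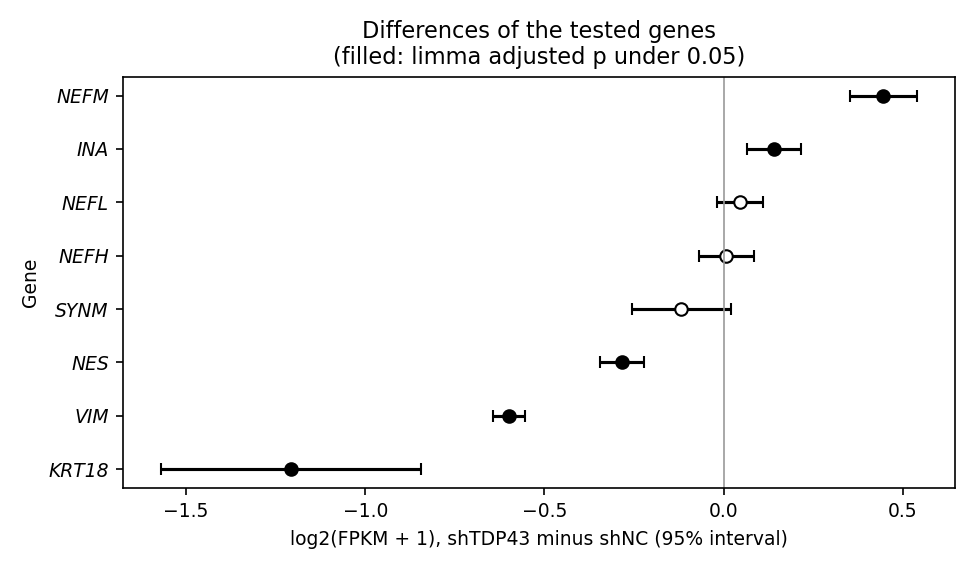
Difference in log2(FPKM + 1), shTDP43 minus shNC, for the 8 tested genes, with 95% intervals from limma and filled points where the adjusted p was under 0.05. NEFM (0.45) and INA (0.14) lie above 0, NES (-0.28), VIM (-0.60) and KRT18 (-1.21) below, and the intervals of NEFL, NEFH and SYNM include 0.

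NEFL (chromosome 8, 24950955 to 24956612, GRCh38), the subunit without which neurofilaments do not assemble, had 48.3, 48.9 and 47.4 FPKM in shNC and 48.3, 51.1 and 50.05 FPKM in shTDP43. The groups overlapped, since the lowest shTDP43 library stood within the control range. Its mean was 103% of control, and the log2 difference was 0.05 with a 95% interval of -0.02 to 0.11 (limma adjusted p = 0.234). A change of the NEFL message larger than that interval was therefore not seen, and smaller ones were not detectable with these libraries.

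NEFM (chromosome 8, 24913761 to 24919093), the neighbouring medium subunit gene 31.9 kb from NEFL, had 34.8, 33.5 and 33.7 FPKM in shNC and 45.2, 49.8 and 45.1 FPKM in shTDP43. Every shTDP43 library lay above every control library. NEFM rose to 137% of control, with a log2 difference of 0.45 (SE 0.04; limma adjusted p = 0.000107), which was rank 218 by size among the 2448 genes called higher. NEFH (chromosome 22, 29480218 to 29491390), the heavy side-arm subunit, had 20.7, 20.7 and 20.4 FPKM in shNC and 20.6, 21.6 and 20.1 FPKM in shTDP43. The shTDP43 values spanned the control range, and the log2 difference was 0.01 with a 95% interval of -0.07 to 0.08 (limma adjusted p = 0.88).

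INA (chromosome 10, 103277138 to 103290346) encodes alpha-internexin, a neurofilament subunit that appears early in neuron development. It had 43.5, 44.1 and 40.7 FPKM in shNC and 46.9, 47.0 and 47.7 FPKM in shTDP43, with no overlap. INA rose to 110.3% of control (log2 difference 0.14, SE 0.03; limma adjusted p = 0.0116). Leaving out shNC replicate 1 and shTDP43 replicate 3 together, which were low in the small nucleolar RNA SNORD3A, gave a difference of 0.14 with an adjusted p of 0.064.

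PRPH (chromosome 12, 49295147 to 49298686) encodes peripherin, the filament protein of peripheral neurons. It had 0.805, 1.16 and 1.22 FPKM in shNC and 0.609, 0.288 and 0.468 FPKM in shTDP43. All shTDP43 values were below all control values, at 42.8% of control, but the mean over the 6 libraries was below 1 FPKM and the gene was not part of the main test. In a fit of all 19907 genes above 0 in at least 1 library, where 24.6% of genes were called and 13.3% were called lower, the log2 difference was -0.50 (limma adjusted p = 0.0209). That adjusted p was 0.0902 without shNC replicate 2, 0.0865 without shNC replicate 3, 0.0682 without shTDP43 replicate 2 and 0.0722 without shTDP43 replicate 3. Estimated depth was lower in shTDP43, and its part in the difference was not tested.

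Within each library the ratio of 2 FPKM values does not depend on a factor that scales the whole library. NEFM stood at 0.720, 0.685 and 0.712 of NEFL in shNC and at 0.936, 0.976 and 0.902 of NEFL in shTDP43. INA stood at 0.900, 0.901 and 0.859 of NEFL in shNC and at 0.969, 0.921 and 0.953 of NEFL in shTDP43. Both ratios were higher in every shTDP43 library than in any control library. NEFH stood at 0.428 ± 0.00448 of NEFL in shNC and at 0.416 ± 0.0131 in shTDP43 (SD, n = 3), and the groups overlapped. Of the summed FPKM of NEFL, NEFM and NEFH, NEFM made up 33.1% ± 0.521 in shNC and 39.8% ± 0.788 in shTDP43, while NEFH went from 20.0% ± 0.0817 to 17.7% ± 0.306. NEFL itself went from 46.9% ± 0.498 to 42.5% ± 0.866 of that sum, so that NEFM came close to NEFL in amount.

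PRPH stood at 0.0220 ± 0.00476 of NEFL in shNC and at 0.00919 ± 0.00348 in shTDP43 (SD, n = 3), without overlap. The log2 difference of that ratio was -0.55 after 1 was added to each FPKM value, -1.14 after 0.1 was added and -1.31 with nothing added, since PRPH itself is near 1 FPKM. VIM stood at 126 ± 30.2 times PRPH in shNC and at 205 ± 81.2 times in shTDP43, and the groups overlapped. The log2 difference of VIM to PRPH was -0.10 after 1 was added and 0.66 with nothing added, so no direction is given for it.

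For 6 ratios, exact two-sided permutation tests on log2(FPKM + 1) gave p = 0.1 for NEFM to NEFL, INA to NEFL, PRPH to NEFL and NES to VIM, p = 0.2 for NEFH to NEFL and p = 0.5 for VIM to PRPH. After Benjamini-Hochberg adjustment over the 6 the lowest value was 0.15. With 3 against 3 libraries p cannot go below 0.1, so no ratio could pass a threshold of 0.05. The ratio of KRT18 to KRT8 was not tested, because KRT8 was listed at 0 in shTDP43. The log2 ratio of NEFM to NEFL was 0.40 higher in shTDP43 and that of INA to NEFL 0.09 higher.

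**Figure D3:**
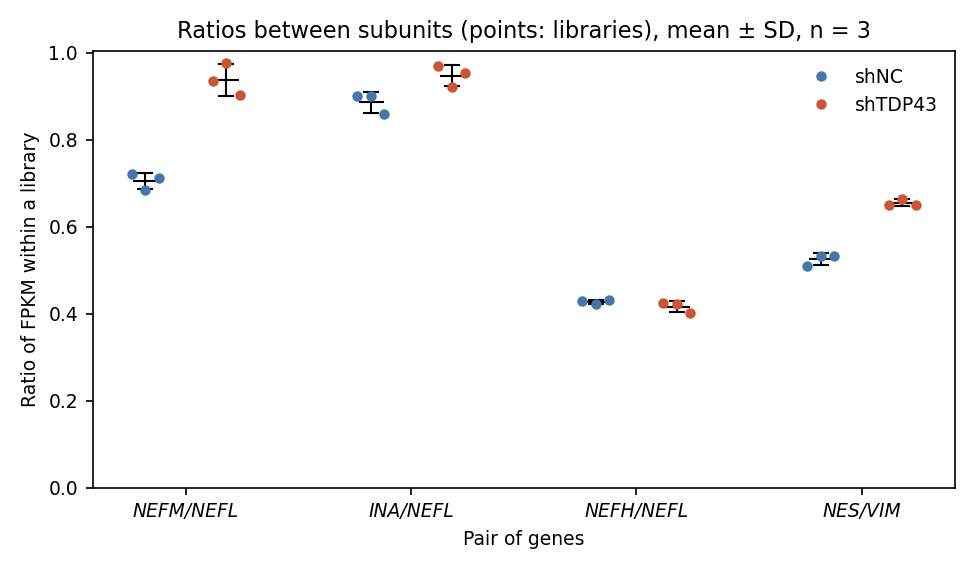
Ratio of the FPKM of 2 genes within a library for NEFM, INA and NEFH against NEFL and for NES against VIM, with points for libraries and the mean and SD of 3 shNC (blue) and 3 shTDP43 (red) libraries. NEFM to NEFL moves from 0.706 to 0.938 and NES to VIM from 0.526 to 0.655 without overlap, while the NEFH to NEFL points overlap.

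VIM (chromosome 10, 17228241 to 17237593), the main filament gene of mesenchymal cells, had 129.3, 129.4 and 128.7 FPKM in shNC and 84.9, 85.3 and 84.6 FPKM in shTDP43. The libraries of each group lay within 1 FPKM of each other, and the groups were far apart. VIM fell to 65.8% of control, with a log2 difference of -0.60 (SE 0.02; limma adjusted p = 3.19e-07), rank 313 by size among the 2606 genes called lower. VIM-AS1, an antisense RNA that overlaps the start of VIM, had 0.337 ± 0.161 FPKM in shNC and 0.277 ± 0.173 FPKM in shTDP43 (SD, n = 3). Whether strand was used in counting was not given in the sources used here, and the part of antisense reads in the VIM value was not tested.

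NES (chromosome 1, 156668763 to 156677407), whose protein nestin marks neural progenitors and polymerises only together with partners such as vimentin, had 66.0, 69.1 and 68.6 FPKM in shNC and 55.2, 56.6 and 55.0 FPKM in shTDP43. No library of the lower group reached the control range. NES fell to 81.9% of control (log2 difference -0.28, SE 0.03; limma adjusted p = 0.00012). The fall of NES was smaller than that of VIM, and the ratio of NES to VIM was 0.511, 0.534 and 0.533 in shNC and 0.651, 0.664 and 0.650 in shTDP43.

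Because VIM and NES fell while INA rose, their promoter windows are shown, from 250 bases before to 50 after the gene's start in RefSeq (GRCh38.p14). They were searched on both strands for GGGCGG, the box bound by SP1, TATAAA, the TATA box, and TGANTCA, the AP-1 motif. Capitals mark GGGCGG or its reverse complement. The windows are chr10:17227991-17228290 (plus strand) for VIM, chr1:156677358-156677657 (minus strand) for NES and chr10:103276888-103277187 (plus strand) for INA.
VIM: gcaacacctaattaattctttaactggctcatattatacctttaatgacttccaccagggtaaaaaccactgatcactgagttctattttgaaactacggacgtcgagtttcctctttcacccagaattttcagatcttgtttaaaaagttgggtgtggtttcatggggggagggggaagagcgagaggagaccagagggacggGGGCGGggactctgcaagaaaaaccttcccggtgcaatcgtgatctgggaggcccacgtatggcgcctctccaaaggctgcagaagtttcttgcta
NES: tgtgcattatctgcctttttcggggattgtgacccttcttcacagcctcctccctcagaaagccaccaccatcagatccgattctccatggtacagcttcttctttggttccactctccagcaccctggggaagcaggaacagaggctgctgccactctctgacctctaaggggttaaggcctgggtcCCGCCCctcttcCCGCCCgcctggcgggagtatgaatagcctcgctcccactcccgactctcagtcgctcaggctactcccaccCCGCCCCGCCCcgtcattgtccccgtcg
INA: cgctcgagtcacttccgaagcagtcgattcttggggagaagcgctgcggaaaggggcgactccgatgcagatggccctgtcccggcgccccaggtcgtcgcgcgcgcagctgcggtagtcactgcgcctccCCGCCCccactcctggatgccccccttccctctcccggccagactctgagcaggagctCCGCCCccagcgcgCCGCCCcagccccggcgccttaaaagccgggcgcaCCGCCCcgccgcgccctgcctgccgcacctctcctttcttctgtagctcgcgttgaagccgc
VIM held 1 GGGCGG box, and NES and INA held 4 each, 2 of those in NES overlapping. Of 35116 promoter windows of this length 44.95% held at least 1. TATAAA, present in 11.5% of windows, and TGANTCA, present in 7.71%, were found in none of these 3. GC content was 48.0% in VIM, 60.3% in NES and 71.3% in INA, against a median of 58.7% over all windows. VIM had 10 CpG pairs, NES 14 and INA 35, against a median of 14 over all windows. Binding at these windows was not measured.

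SYNM (chromosome 15, 99105080 to 99141767), which encodes the large linker-like filament protein synemin, had 4.05, 4.08 and 3.76 FPKM in shNC and 3.62, 3.72 and 3.38 FPKM in shTDP43. The groups did not overlap, but by a small margin. Its mean was 90.2% of control with a log2 difference of -0.12 and a 95% interval of -0.26 to 0.02 (limma adjusted p = 0.158), so it did not pass. TTC23, a protein-coding gene that overlaps the end of SYNM, had 1.61 ± 0.179 FPKM in shNC and 1.57 ± 0.298 FPKM in shTDP43 (SD, n = 3).

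KRT18 and KRT8 are neighbours on chromosome 12 (52948855 to 52952906 and 52897191 to 52949860) and encode the keratin pair of simple epithelia. KRT18 had 2.32, 2.62 and 1.56 FPKM in shNC and 0.306, 0.197 and 0.5998 FPKM in shTDP43. The highest shTDP43 library was below the lowest control library. KRT18 fell to 17.0% of control, with a log2 difference of -1.21 (SE 0.16; limma adjusted p = 0.00069), rank 58 by size among the genes called lower. On log2(FPKM + 0.1), which dampens low genes less, the difference was -2.34, and on log2(FPKM + 0.01) it was -2.64.

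KRT8 had 0.0773, 0.129 and 0.116 FPKM in shNC and was listed at 0 in all 3 shTDP43 libraries. No fold is given, since a listed 0 may stand for an estimate that failed. In control cells KRT18 stood at 29.97, 20.3 and 13.4 times the level of KRT8, although the proteins assemble in pairs. RefSeq annotates 68 pseudogene copies of KRT18 and 52 of KRT8, of which 2 are in the table. How reads with several matches were counted is unknown here, so both keratin values are uncertain. The KRT8 and KRT18 annotations also overlap each other.

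Of 54 other keratin symbols 44 were listed at 0 in all 6 libraries and 1, KRT10, was tested. KRT10, a keratin of upper epidermis, had 6.56 ± 0.781 FPKM in shNC and 6.92 ± 0.672 FPKM in shTDP43 (SD, n = 3), and did not pass. The other keratins were below the tested level. Named after their values were seen, KRT80 had 0.670, 0.641 and 0.662 FPKM in shNC and 0.247, 0.149 and 0.353 FPKM in shTDP43, and KRT17 had 0.152, 0.152 and 0.09999 FPKM in shNC and 0, 0 and 0.0352 FPKM in shTDP43. Both lay lower in every shTDP43 library than in any control library. In the limma fit without a level filter, which called 13.3% of genes lower, their adjusted p was 0.00541 and 0.011. Not all low keratins went this way. The means of KRT19 and KRT7 stood at 128% and 182% of control, with overlapping groups. Neither passed in that fit (limma adjusted p = 0.545 and 0.381). How far the lower estimated depth of shTDP43 libraries affected values this low was not tested. Of 12 epithelial markers 3 were tested. CLDN4, a tight junction gene, was lower at 66.7% of control (limma adjusted p = 0.0496), a call lost without shNC replicate 1 or 2, without shTDP43 replicate 1 or 2, with both libraries low in SNORD3A left out, and with quantile normalization, no level filter, no variance trend or a replicate block, while EPCAM and ESRP2 did not pass. The epithelial cadherin gene CDH1 was near 0 in both groups, at 0.0116 and 0.0197 FPKM, and the summed level of the list was 6.14 to 7.08 FPKM in shNC and 5.73 to 6.51 FPKM in shTDP43. Its part in the KRT18 difference was not tested.

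The 10 mRNAs together summed to 350 ± 3.74 FPKM in shNC and 309 ± 5.42 FPKM in shTDP43, 88.4% of control. VIM alone made up 36.9% ± 0.296 of the sum in shNC and 27.4% ± 0.384 in shTDP43 (SD, n = 3). NEFL, NEFM, NEFH and INA together rose from 41.6% ± 0.506 to 53.2% ± 0.513 of the sum, and from 146 ± 2.88 to 164 ± 4.44 FPKM. VIM and NES together went from 56.3% ± 0.602 to 45.4% ± 0.437 of the sum. These sums describe the 10 genes and were not tested.

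Markers that move with these genes were read from the same fit. All 8 tested markers of mesenchymal cells were lower, of 12 listed, where 19.6% of all tested genes were called lower. Their median log2 difference was -0.74. Their summed level was 304 to 311 FPKM in shNC and 167 to 177 FPKM in shTDP43, in the same direction as VIM. COL3A1, a fibrillar collagen gene, fell to 11.7% of control, ANXA2, a membrane-binding protein gene, to 28.9% and TAGLN, an actin-binding protein gene, to 29.6%. Of the defining markers, CAV1 was listed at 0 in all 6 libraries and PRRX1 at 0 in all shTDP43 libraries with 0.00382 FPKM in shNC. In bulk RNA, fewer cells of a type and less RNA per cell cannot be told apart, and the part of these markers in the VIM and NES differences was not tested.

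Markers of neurons went mostly against NEFM and INA, with 7 of 10 lower (19.6% of all tested genes) and 2 higher (18.5%). The median was -0.32. STMN2, an axonal growth gene, fell to 42.8% and ELAVL4, a neuronal RNA-binding protein gene, to 66.6% of control, whereas DCX, a microtubule-binding protein gene of young neurons, rose to 196%. The number higher was 1 without shNC replicate 1 and shTDP43 replicate 3 together. The summed level of the list was 1333 to 1343 FPKM in shNC and 858 to 868 FPKM in shTDP43. Most of that fall was STMN2 alone, with means of 678 FPKM in shNC and 290 FPKM in shTDP43. TUBB3, a neuronal tubulin gene, was the other gene called higher, at 112% of control (limma adjusted p = 0.0156). Noradrenergic markers were higher in 5 of 9 tested (18.5% of all tested genes) and lower in 3 (19.6%). DDC, a catecholamine enzyme gene, stood at 127% and the regulator PHOX2A at 80.1% of control. The number higher was 3 without shNC replicate 2 or 3, and 3 without shTDP43 replicate 2 or 3. Glial and Schwann cell markers numbered 8, of which 2 were tested. PMP22 fell to 36.5% and S100B to 51.5% of control, and S100B, with means of 1.501 and 0.774 FPKM in shNC and shTDP43, reached the tested level only through its control libraries, while SOX10 stood at 0.180 and 0.295 FPKM and FABP7 at 0. S100B no longer passed without shNC replicate 1 or 2, or without shTDP43 replicate 3. Of 7 muscle markers 2 were tested. TNNT2 rose to 187% and MYH3 to 149% of control, and MYH3, with means of 0.961 and 1.43 FPKM, reached the tested level only through its shTDP43 libraries. Only 1 of the 2 passed when shNC replicate 1 or 2 or shTDP43 replicate 1 or 2 was left out, and 0 when shNC replicate 1 and shTDP43 replicate 3 both were, and MYOD1 was near 0, at 0.0350 and 0.0099 FPKM.

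Among proteins known to bind neurofilament mRNAs, ARHGEF28, which encodes a guanine nucleotide exchange factor that binds the NEFL message, had 5.62, 5.65 and 5.88 FPKM in shNC and 2.56, 2.56 and 2.40 FPKM in shTDP43. ARHGEF28 fell to 43.8% of control (log2 difference -0.94, SE 0.06; limma adjusted p = 9.79e-06), a larger fall in percent than that of TARDBP itself. Of the 7 genes of this list 3 were higher (18.5% of all tested genes) and 2 lower (19.6%), TARDBP included. The median was 0.05. NEFL did not pass the test in the same libraries.

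Among the 4 tested filament genes outside these 10 and the keratins, only the A-type lamin gene passed the test. LMNA, the nuclear lamina gene for lamins A and C, had 31.0, 33.6 and 31.6 FPKM in shNC and 21.5, 21.3 and 21.8 FPKM in shTDP43. It fell to 67.3% of control (log2 difference -0.55, SE 0.04; limma adjusted p = 1.45e-05), close to the 65.8% of VIM. The B-type lamin genes LMNB1 at 102% and LMNB2 at 102% of control did not pass (limma adjusted p = 0.504 and 0.477). Of 9 other filament genes 4 were tested, with 1 lower (19.6% of all tested genes) and 0 higher (18.5%). DES and GFAP, the muscle and astrocyte filament genes, were near 0 in both groups, at 0.0073 and 0.0076 FPKM and at 0.0849 and 0.162 FPKM.

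Linkers that tie filaments to junctions, actin and microtubules were lower in 3 of 7 tested (19.6% of all tested genes) and higher in 1 (18.5%). The median was -0.10. DTNA, the gene for alpha-dystrobrevin, a partner of synemin, fell to 62.4% of control, with 11.6 ± 0.503 FPKM in shNC and 7.24 ± 0.560 FPKM in shTDP43 (SD, n = 3; limma adjusted p = 0.000137). PLEC, the plectin gene, fell to 88.4% and MACF1, a giant spectraplakin gene, rose to 112% of control. The number lower was 1 without shNC replicate 1 and shTDP43 replicate 3 together. In the fit without a level filter 3 of 13 were higher and 4 lower. Of the 19907 genes in that fit 2245 were called higher and 2656 (13.3%) lower. The utrophin gene UTRN, named after its values were seen, had 0.313, 0.411 and 0.329 FPKM in shNC and 1.29, 1.51 and 1.37 FPKM in shTDP43, 395% of control, and was below the tested level over the 6 libraries (limma adjusted p = 0.000272 without a level filter).

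Carriers of filament subunits along the axon were lower in 4 of 8 tested (19.6% of all tested genes) and higher in 1 (18.5%). The median was -0.10. KIF5A, a neuronal kinesin heavy chain gene whose product moves neurofilaments, fell to 82.4% and KLC1, a kinesin light chain gene, to 85.8% of control. MYO5A, a myosin gene whose product binds NEFL, rose to 119%. The dynein heavy chain gene DYNC1H1 stood at 100.6% of control (limma adjusted p = 0.799).

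Enzymes that phosphorylate or dephosphorylate filament proteins were higher in 5 of 21 tested (18.5% of all tested genes) and lower in 5 (19.6%). The median was -0.0014. CDK5R1, the activator of the neurofilament kinase CDK5, rose to 124% of control, with 13.2 ± 0.0916 FPKM in shNC and 16.4 ± 0.367 FPKM in shTDP43 (SD, n = 3; limma adjusted p = 0.000319), and CDK5 itself at 107% did not pass (limma adjusted p = 0.0899). MAPK8, the kinase gene for JNK1, fell to 83.8% and PLK1, a mitotic kinase gene, to 84.8%. These counts depended on single libraries. Leaving out any 1 library also lowered the number called over all genes, from 5054 to between 4025 and 4373. The number higher was 3 without shNC replicate 1 or shTDP43 replicate 1 and 2 without shTDP43 replicate 2. The number lower was 3 when shNC replicate 1 or shTDP43 replicate 1 was left out, 2 when shNC replicate 2 was, and 1 when shTDP43 replicate 3 was.

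Chaperones and turnover factors of filaments were lower in 6 of 13 tested (19.6% of all tested genes) and higher in 0 (18.5%). The median was -0.13. HSPB1, a small heat-shock protein gene, had 74.0, 67.4 and 68.4 FPKM in shNC and 43.4, 50.7 and 51.2 FPKM in shTDP43 and fell to 69.3% of control (limma adjusted p = 0.000476). DNAJB2, a neuronal chaperone gene, fell to 80.9% and SQSTM1, the autophagy receptor gene, to 82.1%. The number lower was 5 without shNC replicate 1 or 2 or without shTDP43 replicate 2 or 3, and 7 without shNC replicate 3. It was 4 without shNC replicate 1 and shTDP43 replicate 3 together.

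Transcription factors known to act on filament genes were higher in 7 of 15 tested (18.5% of all tested genes) and lower in 5 (19.6%). The median was -0.06. SOX11, a factor of immature neurons, had 89.3, 90.7 and 92.7 FPKM in shNC and 152, 154 and 150.3 FPKM in shTDP43 and rose to 167% of control (limma adjusted p = 2.66e-07). ETS1 rose to 153%, and SNAI2, a factor of the mesenchymal state, fell to 60.9%. TWIST1, another factor of that state, stood at 145% of control, against the direction of VIM. The number lower was 2 without shNC replicate 1 and shTDP43 replicate 3 together. POU4F1, an activator of neurofilament genes, was near 0 in both groups at 0.0300 and 0.0513 FPKM.

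**Figure D4:**
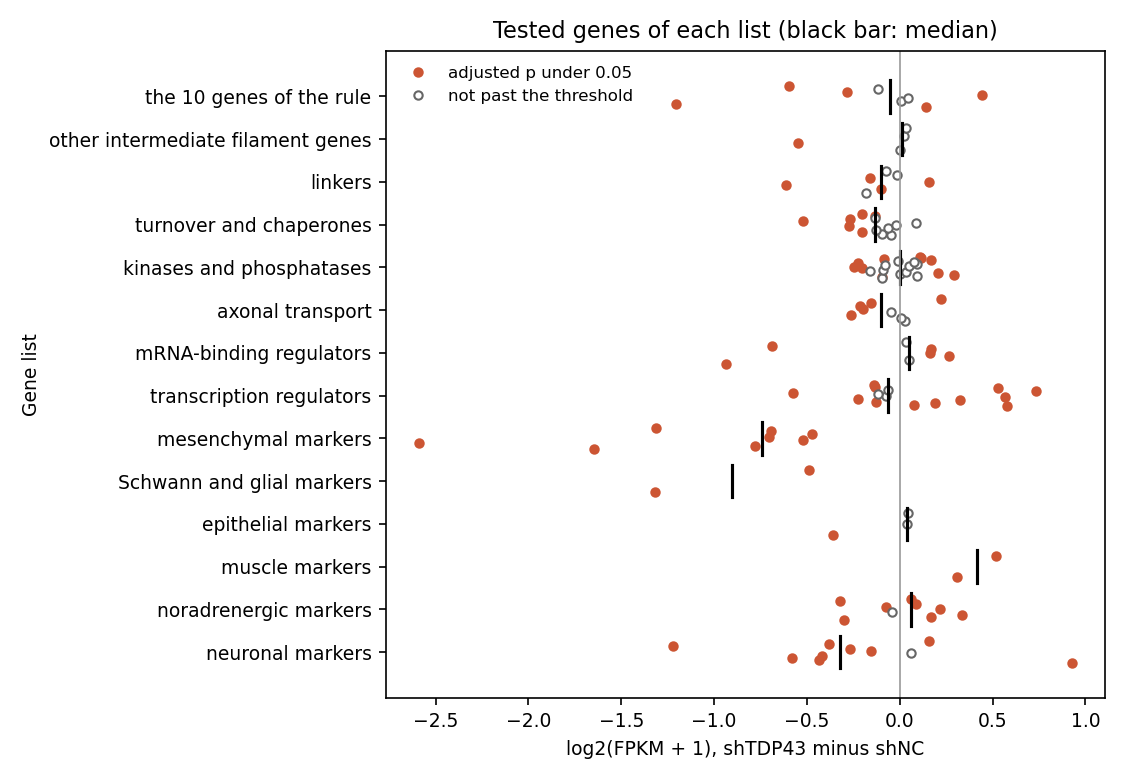
Difference in log2(FPKM + 1), shTDP43 minus shNC, for each tested gene of the 10 examined and of 13 other lists, with filled points where the limma adjusted p was under 0.05 and a black bar at the list's median. The mesenchymal markers all lie below 0 with a median of -0.74, while the kinases and phosphatases spread to both sides of 0.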

How the data were processed

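RNA was measured in 6 SH-SY5Y libraries, 3 of shNC and 3 of shTDP43, grouped by title. The authors deposited a table with 1 FPKM value per gene symbol and library. Per the submitters' processing notes, the tools were TopHat2 2.1.0, SAMtools and Cuffdiff 2.2.1, on hg38. For the annotation, the use of strand, reads with several matches and scaling, the setting was not given in the sources used here. The table holds no counts, so read depth is unknown and no count model was used. Relative depth was taken from the most frequent ratio to shTDP43 replicate 1 over 1655 genes that every library detected and whose mean was under 0.3 FPKM, a rough estimate.

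The log2(FPKM + 1) values were fitted in limma 3.58.1 (R 4.3.3), with group as the only term, a trend on level, two-sided tests and Benjamini-Hochberg adjustment over 13263 genes whose mean reached 1 FPKM. The fit was tested on simulated data of 13263 genes with independent normal errors. Only the genes counted next were changed, and all of them were raised. It recovered 23 of 50 genes raised 1.2-fold, 44 of 50 raised 1.5-fold, 50 of 50 raised 2-fold and 49 of 50 raised 3-fold. There were 12 false calls. In the real data 38.1% of tested genes were called, in both directions, so recovery and false calls there may differ. Permutation tests used scipy 1.17.1. Locations and promoters came from RefSeq (GRCh38.p14, the assembly family of hg38; 6 of the 10 genes had a promoter entry, and NEFL, NEFM, NEFH and KRT18 did not), and transcripts from GENCODE 29. Genes were matched to transcripts by current symbol.

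The 10 genes and all lists were chosen with earlier results of these data known. The text names all 10, TARDBP, and from each list up to 3 genes past the threshold with the largest difference; further genes were named after their values were seen. Some genes of the lists are not reported here. Alternatives changed the pseudocount, level filter, scaling, variance trend, libraries and replicate block.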

Additional observations from a re-analysis of the deposited data

How the results depend on the processing

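Under 15 alternatives (14 for KRT18, which is below a filter of 5 FPKM) NEFM, VIM, NES, KRT18 and TARDBP kept their direction and passed the limma test at an adjusted p under 0.05, and under those that could be run NEFL and SYNM kept theirs and did not pass. Log2 differences ran from 0.40 to 0.49 for NEFM, -0.60 to -0.56 for VIM, -0.30 to -0.27 for NES and -2.64 to -1.10 for KRT18. With shNC replicate 1 and shTDP43 replicate 3 both left out, which leaves fewer samples, INA had 0.14 and no longer passed (adjusted p = 0.064), so 1 of the 10 genes was higher, and over all genes 3322 passed, 1562 of them higher. Without a filter on level 5 of the 10 genes were lower, as PRPH and KRT8 then entered. In that fit 13.3% of 19907 genes were called lower. NEFH, which did not pass, had -0.0020 with quantile normalization and -0.019 to 0.029 without each library in turn. The log2 ratio of VIM to PRPH, at -0.10, was 0.49 with a pseudocount of 0.1 and 0.66 with none, an alternative chosen after seeing the data, since adding 1 to PRPH values near 1 FPKM shrinks their difference, while the other 5 ratios tested kept their direction. The ratio of KRT18 to KRT8 could not be computed in shTDP43, where KRT8 is listed at 0. With 1 library left out in turn, 4025 to 4373 of all genes passed, so counts within the lists tended to fall as well. Quantile normalization moved the median of all genes from 0.0012 to 0.018. Replicate numbers are shared by the groups, but same-numbered libraries deviated together at r = -0.07, 0.06 and 0.11, so the numbers were not taken as pairs. A fit with the replicate number as a block called 4502 genes, against 5054 without it, and moved no call among the 8 tested genes, while the adjusted p of PRPH without a level filter went to 0.0625. FPKM carry no read totals, so what depth could show for PRPH and KRT8 is unknown.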
